A study of Mus musculus with 16 samples.

Results

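The genes of MHC class II antigen presentation were followed through 16 abdominal tumors of the mouse. The group was given as a list of 8 genes, H2-Aa, H2-Ab1, H2-Eb1, Cd74, Ciita, H2-DMa, H2-DMb1 and H2-Oa, and all 8 were found among the 22298 genes counted. The list names genes of the pathway and uses no measured value as a threshold. The tumors came from 615-line mice that had been injected with 500000 MFC cells (a carcinoma line of the mouse forestomach that grows in this strain) into the peritoneal cavity at 6 weeks of age. In the vehicle group 8 tumors came from mice given PBS, and in the IL-33 group 8 tumors came from mice given IL-33 at 20 μg/kg, by the same route every 2 days. The tumors of both groups are labelled wild type, and no other agent is named. The methods give fewer mice per group than tumors for this model, though its survival experiment used more. Some tumors may therefore share a mouse, and n counts tumors. IL-33 belongs to the IL-1 cytokines. Bulk polyadenylated RNA was sequenced, so each value sums the cancer cells and all host cells of the piece of tumor, and fewer cells of a type and less RNA per cell cannot be told apart.

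MHC class II molecules are pairs of an α and a β chain that carry peptides from the endosome to the cell surface, where CD4 T cells read them. The chains are assembled on the invariant chain, Cd74, whose last fragment is exchanged for a peptide by the DM pair, and the DO pair restrains DM. In a tumor, dendritic cells, B cells and activated macrophages are the usual source of these transcripts, and many other cells, some cancer cells included, make them after exposure to interferon gamma, which induces the transactivator Ciita. The comparison of the groups asks whether the class II pathway differed in tumors of mice treated with the cytokine.

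Libraries held between 14139268 and 24290794 counts. Levels are given as CPM, the count of a gene scaled to a total of 1000000 counts per tumor. Among the other lists, the IL-33 replicate 7 library stood apart by genes of the female reproductive tract. Their 7 markers summed to 1440 CPM there against 10.6 to 22.3 CPM in the other 15 tumors. This library also stood apart by adipose genes and by Ccl21a and Ccl19 of the lymph node stroma. Krt18, Epcam, Cdh1, Wt1, Upk3b and Lrrn4, genes of epithelium and mesothelium, were at 17.8 to 159 CPM there and at most 3.90 CPM elsewhere. Krt8 and Krt19 were not highest there, and Msln was lowest, at 92.5 CPM. Vehicle replicate 4 had the lowest TMM scaling factor, 0.64. Results are therefore given with and without IL-33 replicate 7.

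None of the 8 class II genes passed the test between the groups, and the spread between tumors of 1 group was far larger than the difference between groups. In edgeR's quasi-likelihood test across all 16817 genes with at least 10 counts, 0 of 8 members passed an adjusted p of 0.05, where 0% of all genes did. At an unadjusted p under 0.05, 0 of 8 members passed as well, where 11.2% of all genes did, 9.99% higher with IL-33 and 1.17% lower. The fitted log2 fold change was above 0 for 8 of 8 members, where 58.3% of all genes lay above 0, and its median over the members was 0.35 against 0.06 over all genes. The 8 genes vary together across tumors, so these 8 signs are not separate observations. Between tumors the highest level of H2-Aa was 109 times the lowest, and both groups held tumors near either end.

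**Figure D1:**
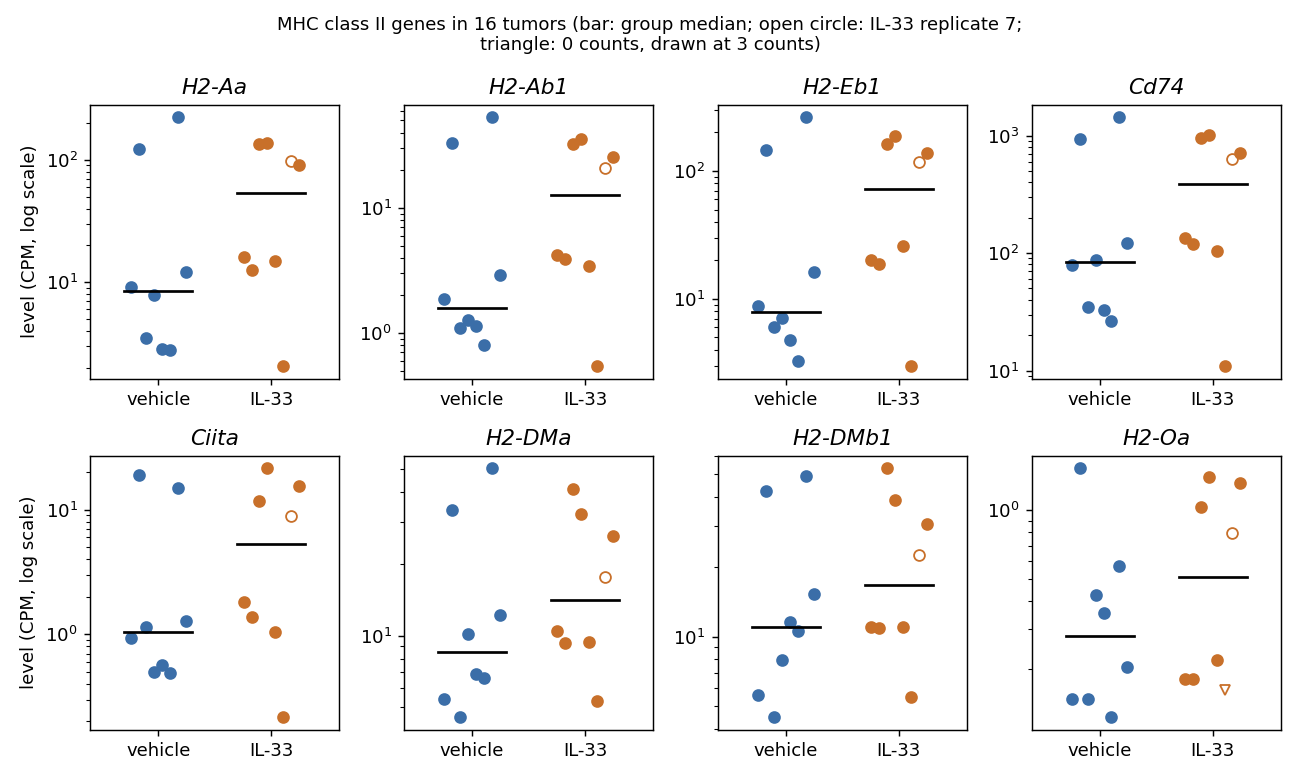
Level of each class II gene in CPM (vertical axis, logarithmic) in 8 vehicle and 8 IL-33 tumors (horizontal axis), 1 symbol per tumor. In the vehicle group 2 tumors, and in the IL-33 group 4, sit above all others in each panel.

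H2-Aa encodes the α chain of the I-A molecule. It lies on chromosome 17, minus strand, at 34282744 to 34287823 of GRCm38. In vehicle tumors its level was 2.78 CPM at the lowest, 8.53 CPM at the median and 224 CPM at the highest, and in IL-33 tumors it was 2.05, 53.5 and 137 CPM. The group means were 48.1 ± 81.9 CPM (SD, n = 8) and 63.2 ± 57.6 CPM (SD, n = 8). Vehicle replicates 2 (123 CPM) and 7 (224 CPM) held 90.1% of the summed CPM of their group. In the IL-33 group replicates 3, 4, 7 and 8 lay between 91.0 and 137 CPM, and the other 4 tumors between 2.05 and 15.9 CPM. The log2 fold change was 0.33 (SE 0.96, 95% interval -1.69 to 2.35) with an adjusted p of 0.949 in edgeR. On the log2(CPM + 0.5) scale the group means differed by 1.27, with an unadjusted p of 0.269 in a two-sided exact permutation test over 12870 assignments. The 2 numbers differ because the first compares means of counts, which the highest tumors dominate, and the second compares means of logarithms.

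H2-Ab1 encodes the β chain that pairs with H2-Aa (chromosome 17, 34257689 to 34269419, plus strand). Its level ran from 0.802 through a median of 1.58 to 53.1 CPM in vehicle tumors, and from 0.541 through 12.6 to 35.4 CPM in IL-33 tumors. Mean levels were 11.9 ± 19.98 CPM (SD, n = 8) and 15.8 ± 14.3 CPM (SD, n = 8). The same tumors were high as for H2-Aa, and the groups overlapped over almost their whole range. The log2 fold change was 0.35 (SE 0.94) with an adjusted p of 0.943 in edgeR, and the exact permutation p was 0.250. H2-Ab1 gave fewer counts than its partner in each tumor, at 0.161 to 0.400 counts for each count of H2-Aa. Class II chains are highly polymorphic between mouse strains and reads were aligned to the mm10 reference of another strain, so levels of different chains were not read as amounts of protein.

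H2-Eb1 encodes the β chain of the I-E molecule (chromosome 17, 34305867 to 34316674, plus strand). It was at 3.27 CPM at the lowest, 7.93 at the median and 263 at the highest in vehicle tumors, and at 2.97, 72.0 and 189 CPM in IL-33 tumors. Of H2-Aa, H2-Ab1, H2-Eb1 and Cd74 it had the largest log2 fold change, 0.50 (SE 0.94, 95% interval -1.48 to 2.48), with an adjusted p of 0.907 in edgeR and an exact permutation p of 0.195. The promoter of H2-Eb1 shows the layout by which class II genes are known, an X box and a Y box that bind the RFX and NF-Y factors on which Ciita acts. Its sequence and that of H2-Oa, the DO α chain, are printed because they carry this layout at the start of the gene, with the X core AGNAAC and the Y core ATTGG in capitals, 5′ to 3′ on the plus strand, from RefSeq's promoter table on GRCm38.p6.

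H2-Eb1, chr17:34305769-34305818: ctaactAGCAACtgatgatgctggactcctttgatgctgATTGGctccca

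H2-Oa, chr17:34092302-34092340: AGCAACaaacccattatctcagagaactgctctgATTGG

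The last 1 base of the H2-Oa stretch lies in the first exon of the gene as GENCODE draws it. Promoters covered 250 bases before and 50 after the start site, and were held for 5 of the 8 members, with 2 for H2-DMa. The pair of cores, AGNAAC followed 10 to 40 bases downstream by ATTGG and searched on both strands, occurred in 3 of these 5 members, H2-Eb1, H2-Oa and H2-DMb1. It occurred in 547 of 32851 promoters (1.67%). The distance between the cores was 27 bases in H2-Eb1 and 28 in H2-Oa and H2-DMb1. The windows of H2-Aa and H2-DMa did not hold these letters in this order, which says nothing about their factors. The match is a description of sequence and was not tied to the levels.

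Cd74, the invariant chain and chaperone of all class II pairs (chromosome 18, 60803848 to 60812652, plus strand), was the most abundant member. Its level was 26.2 CPM at the lowest, 83.4 at the median and 1435 at the highest in vehicle tumors, and 10.9, 383 and 1016 CPM in IL-33 tumors. Between the lowest tumor, IL-33 replicate 6, and the highest, vehicle replicate 7, this was a 132-fold range. The log2 fold change was 0.35 (SE 0.90) with an adjusted p of 0.938 in edgeR, and the exact permutation p was 0.382. Counts of Cd74 moved with those of H2-Aa. Their ratio stayed between 5.29 and 11.6 across tumors in which H2-Aa itself changed 109-fold.

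Ciita, the transactivator that class II transcription depends on (chromosome 16, 10480059 to 10528418, plus strand), was scarce. It ran from 0.494 through a median of 1.04 to 18.9 CPM in vehicle tumors, and from 0.216 through 5.32 to 21.6 CPM in IL-33 tumors, which was 4 to 374 counts per tumor. The log2 fold change was 0.62 (SE 0.93, 95% interval -1.34 to 2.58) with an adjusted p of 0.872 in edgeR, and the exact permutation p was 0.338. It was the largest fold change of the 8 members. The highest Ciita level was in IL-33 replicate 4, and the lowest in IL-33 replicate 6, so both ends of its range lay in 1 group.

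H2-DMa and H2-DMb1 encode the 2 chains of DM, the editor that exchanges peptides inside the endosome, and they varied less. H2-DMa (chromosome 17, 34119541 to 34139101, plus strand) was between 4.54 and 50.4 CPM in vehicle tumors with a median of 8.55, and between 5.30 and 41.4 CPM in IL-33 tumors with a median of 14.1. H2-DMb1 (chromosome 17, 34153072 to 34160230, plus strand) was between 4.49 and 49.2 CPM with a median of 11.0 in vehicle tumors, and between 5.52 and 53.1 CPM with a median of 16.7 in IL-33 tumors. The log2 fold changes were 0.14 (SE 0.52) for H2-DMa and 0.25 (SE 0.52) for H2-DMb1, with adjusted p of 0.962 and 0.921 in edgeR. The highest tumor held 11.1 times the lowest for H2-DMa and 11.8 times for H2-DMb1, against 88.6 to 132 times for H2-Aa, H2-Ab1, H2-Eb1, Cd74 and Ciita. As a result the balance between editor and chains changed with the tumor: there were 0.179 counts of H2-DMa per count of H2-Aa in IL-33 replicate 7 and 2.58 in IL-33 replicate 6. H2-DMb1 has a near copy, H2-DMb2, and reads shared by both could have been split or left out, so each is uncertain as a single gene.

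H2-Oa, the α chain of the DM inhibitor DO (chromosome 17, 34092340 to 34095234, plus strand), was near the floor of detection. It was between 0.123 and 1.53 CPM in vehicle tumors with a median of 0.279, and between 0 and 1.40 CPM in IL-33 tumors with a median of 0.509. These are 0 to 32 counts, and the 0 in IL-33 replicate 6 allows up to 0.162 CPM (3 counts, counting error only). The log2 fold change was 0.40 (SE 0.77) with an adjusted p of 0.909 in edgeR. The exact permutation p was 0.487, and the 95% interval of the fold change ran from -1.21 to 2.02.

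**Figure D2:**
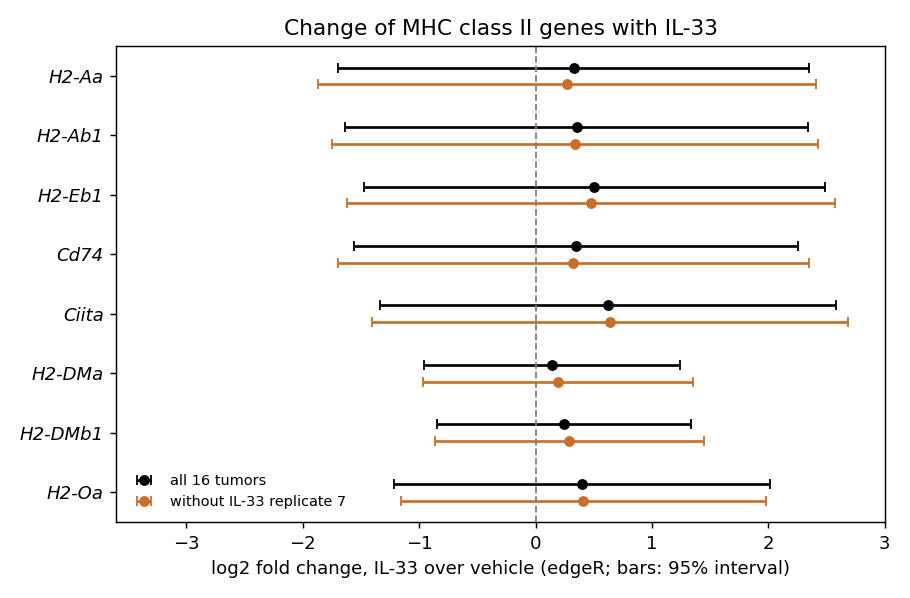
Log2 fold change of IL-33 over vehicle tumors (horizontal axis) for the 8 class II genes, from edgeR, with 95% intervals, for all 16 tumors (black) and without IL-33 replicate 7 (orange). All 16 intervals cover 0, and those of H2-DMa and H2-DMb1 are the shortest.

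Without IL-33 replicate 7, 0 of 8 members passed in edgeR at an unadjusted p under 0.05, where 4.12% of all genes did, 1.83% higher with IL-33 and 2.29% lower. The member log2 fold changes were then between 0.19 (H2-DMa) and 0.64 (Ciita), with a median of 0.33 against -0.01 over all genes, and 8 of 8 lay above 0, where 47.9% of all genes did. For H2-Aa the value moved from 0.33 to 0.27 (SE 1.01), and the exact permutation p moved from 0.269 to 0.377 over 6435 assignments. The medians moved more, because removing 1 tumor from a group split evenly between high and low ones shifts the middle: the IL-33 median of H2-Aa fell to 15.9 CPM and that of Cd74 to 134 CPM. The ratio of group medians, IL-33 over vehicle, was thus 6.27 for H2-Aa with all tumors and 1.87 without this one. The ratio of group means was 1.31 and 1.21. For H2-Oa the ratio of medians turned from 1.82 to 0.785, with the IL-33 median at 0.219 CPM, and for H2-DMb1 it went from 1.52 to 0.995, while their ratios of means stayed at 1.41 and 1.25.

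Single other tumors had more weight than IL-33 replicate 7. Leaving out vehicle replicate 7 raised the median member log2 fold change from 0.35 to 1.16, and leaving out vehicle replicate 2 raised it to 0.78. Leaving out IL-33 replicate 3 lowered it to 0.08, and leaving out IL-33 replicate 4 lowered it to 0.10. In none of the 16 fits without 1 tumor did a member pass an unadjusted p of 0.05 in edgeR. With limma voom and sample quality weights, H2-Eb1 had a log2 fold change of 1.83 at an unadjusted p of 0.0435 and an adjusted p of 0.841, the only such case among 199 refits of single members. Under voom the median member log2 fold change was 1.38, with 0 of 8 at an adjusted p of 0.05. The weights count tumors unequally, and the voom fit is on a log scale, as the permutation test is.

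The class II genes divided the 16 tumors in the same way. Ordered by the mean log2(CPM + 0.5) of the 8 genes, the tumors left a gap of 1.78 between the tenth and the eleventh, against 0.57 for the next widest gap. Above it lay vehicle replicates 2 and 7 and IL-33 replicates 3, 4, 7 and 8, which is 2 of 8 vehicle and 4 of 8 IL-33 tumors, and these shares were not tested because the division was drawn from the levels. Each of the 8 members had these 6 tumors as its 6 highest, which is a description only, since the mean of these 8 genes chose the 6. The gap between the lowest of the 6 and the highest of the other 10 was 5.71-fold for H2-Aa, 4.95 for H2-Ab1, 4.56 for H2-Eb1, 4.74 for Cd74 and 4.86 for Ciita. It was 1.45-fold for H2-DMa, 1.47 for H2-DMb1 and 1.35 for H2-Oa. Of all 16817 genes, 497 (2.96%) had the same 6 tumors highest, a share that is no test of the members, which drew the division. Without IL-33 replicate 7, 995 genes (5.92%) had the remaining 5 highest. The 8 members are among them by necessity, since a gene with all 6 highest also has any 5 of them highest.

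Within the 6 tumors the order was not the same for each member. Vehicle replicate 7 was highest for 5 members, the 3 classical chains, Cd74 and H2-DMa, while its H2-Oa (0.572 CPM) was the lowest of the 6. Vehicle replicate 2 had the highest H2-Oa. Within the other 10 tumors IL-33 replicate 6 was lowest for 6 of the 8 members, with H2-DMa and H2-DMb1 as the exceptions, both lowest in vehicle replicate 3.

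Per kilobase of exon, Cd74 was above each of the other 7 members in 16 of 16 tumors, with a median over all tumors of 71.6 CPM per kb. H2-Eb1 was above H2-Aa, and H2-Aa above H2-Ab1, in 16 of 16 tumors, with medians of 9.96, 3.64 and 1.43 CPM per kb. On this scale the editor changed place. H2-DMb1, at a median of 6.69 CPM per kb, was above H2-Aa in 10 of 10 of the lower tumors and in 0 of the 6 upper ones. These orders depend on the lengths used, all annotated exons joined, which were 3798 bases for H2-Aa and 1681 for H2-DMb1. In counts, H2-DMb1 was below H2-Aa in vehicle replicate 1 and IL-33 replicates 1, 2 and 5. It was equal in vehicle replicate 4 and above in the rest of the lower tumors. H2-DMa had a median of 3.00 CPM per kb. Ciita and H2-Oa were the lowest, at medians of 0.140 and 0.203 CPM per kb, and their order was not fixed, with Ciita higher in 10 of 16 tumors.

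**Figure D3:**
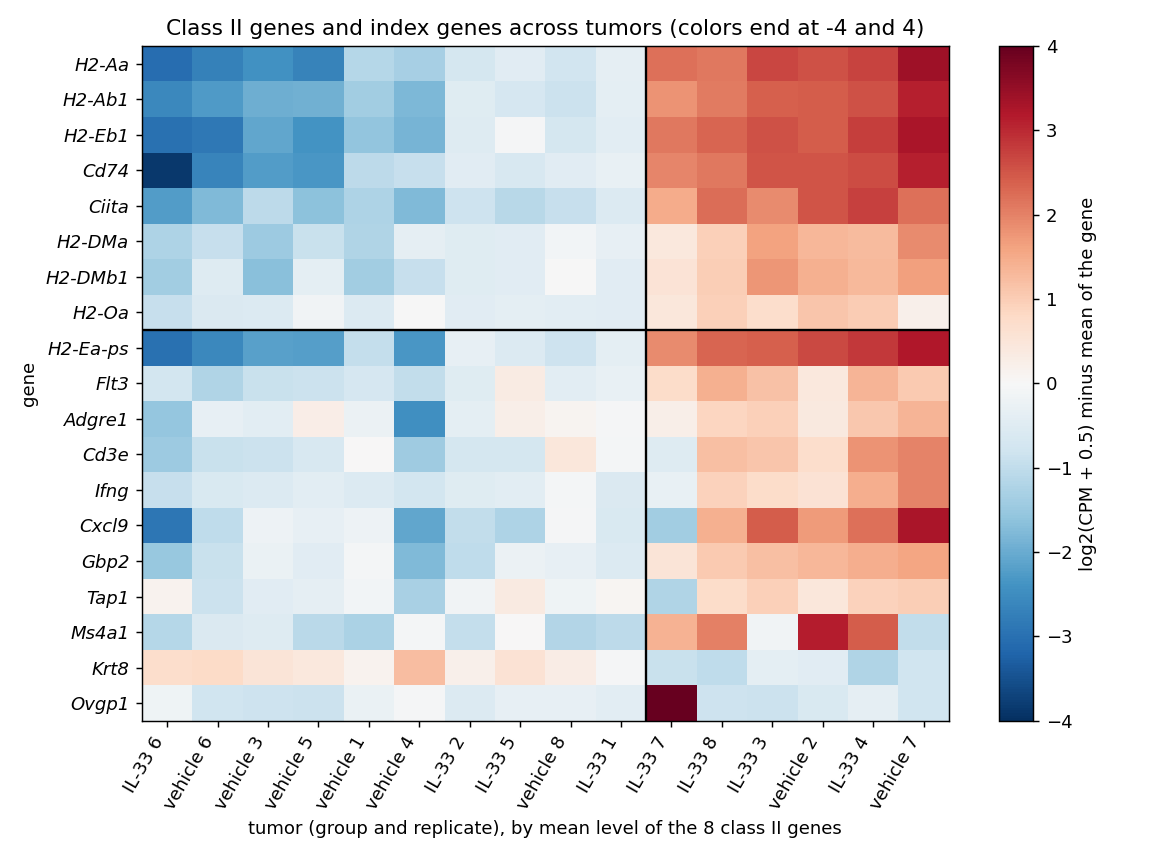
Log2(CPM + 0.5) of each gene minus its mean over the 16 tumors (color), for the 8 class II genes above the horizontal line and other genes below it, with tumors ordered by the mean level of the 8. The vertical line marks the gap of 1.78, and to its right all 8 members are high while Ifng, Cxcl9, Tap1 and Ms4a1 differ between tumors.

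Of 4 further class II chains, 3 shared this order of tumors. H2-Ea-ps, annotated as a pseudogene because the reference strain does not express the I-E α chain, gave 1.85 to 127 CPM in vehicle and 1.24 to 97.7 CPM in IL-33 tumors, at 0.320 to 0.770 counts per count of its partner H2-Eb1. H2-DMb2, a second DM β chain, gave 1.73 to 20.8 and 1.41 to 20.8 CPM, and H2-Ob, the partner of H2-Oa, gave 0 to 5.82 and 0 to 2.92 CPM. These 3 had the same 6 tumors highest, while H2-Eb2, at most 1.20 CPM, did not. Of these 4 genes 0 passed an unadjusted p of 0.05 in edgeR in either direction, with a median log2 fold change of 0.33. The largest was 1.68 (SE 1.11) for H2-Eb2, with an adjusted p of 0.619.

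Factors that bind class II promoters mostly did not share it. Of Rfx5, Rfxank, Rfxap, Nfya, Nfyb, Nfyc and Creb1, 0 of 7 had the same 6 tumors highest and 0 of 7 passed an unadjusted p of 0.05 in edgeR, with a median log2 fold change of -0.05. Rfxank (-0.41, SE 0.29), Rfx5 (0.22, SE 0.18) and Nfya (-0.13, SE 0.16) had the smallest p. All 3 stood apart in vehicle replicate 4, without which they were at 0.00 (SE 0.15), 0.12 (SE 0.15) and -0.22 (SE 0.14). Rfx5 was at 9.73 CPM in IL-33 replicate 3, where the class II genes were high, and at 19.6 CPM in IL-33 replicate 5, where they were low. Without IL-33 replicate 7, 1 of the 7 had the remaining 5 tumors highest, where 5.92% of all genes did. It was Nfyb, a subunit of NF-Y, at 32.5 to 38.4 CPM against 18.1 to 30.3 CPM in the 10 lower tumors, and at 23.5 CPM in IL-33 replicate 7. Ciita had the same 6 tumors highest, and so the same 5, with a wider gap.

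Interferon gamma and its signaling were read from Ifng, its receptor chains Ifngr1 and Ifngr2, the kinases Jak1 and Jak2, Irf1 and the inhibitor Socs1. In edgeR 0 of 7 passed an unadjusted p of 0.05, with a median log2 fold change of 0.03, led by Jak2 (0.31, SE 0.15), Ifngr1 (0.20, SE 0.14) and Jak1 (0.24, SE 0.17), which were at 0.22, 0.11 and 0.14 without vehicle replicate 4. Irf1, an interferon target itself, had the same 6 tumors highest. Without IL-33 replicate 7, 3 of the 7 had the remaining 5 tumors highest, where 5.92% of all genes did. Ifng was above the 10 lower tumors in 5 of the 6, at 0.920 to 3.32 CPM against at most 0.412 CPM, but was at 0.285 CPM in IL-33 replicate 7. Of the interferon targets Cxcl9, Gbp2, Gbp3, Irgm1, Tap1 and Psmb9, 0 of 6 passed, with a median of 0.16, led by Tap1 (0.39, SE 0.30), Gbp3 (0.29, SE 0.49) and Irgm1 (0.20, SE 0.43). Without IL-33 replicate 7, Tap1, a peptide transporter of the class I pathway, was at 0.54 (SE 0.24) with an unadjusted p of 0.0405 and an adjusted p of 0.964.

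IL-33 replicate 7 was the exception to this set. In the other 5 upper tumors each of the 6 targets was above all 10 lower tumors, whereas in replicate 7 only Gbp2 was. Its Cxcl9 was at 7.29 CPM, against 54.0 to 197 CPM in the other 5. Its Tap1 was at 76.8 CPM, second lowest of the 16, and its Psmb9 at 43.8 CPM was the lowest. The class II genes were nonetheless high there, H2-Ab1 at 20.9 CPM and Ciita at 8.83 CPM. The genes of the female reproductive tract and adipose tissue (778 CPM summed over 4 markers, at most 51.4 elsewhere) moved with this library. Lymph node stroma did so in part (238 CPM over 4 markers, at most 55.3 elsewhere). Of the 238 CPM, Ccl21a gave 182. Cxcl13 (48.9 CPM) and Madcam1 (1.54 CPM) were both higher in vehicle replicate 2, at 51.3 and 1.96 CPM. The part of these genes in the class II levels of IL-33 replicate 7 was not tested. The member values without this library are given above.

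**Figure D4:**
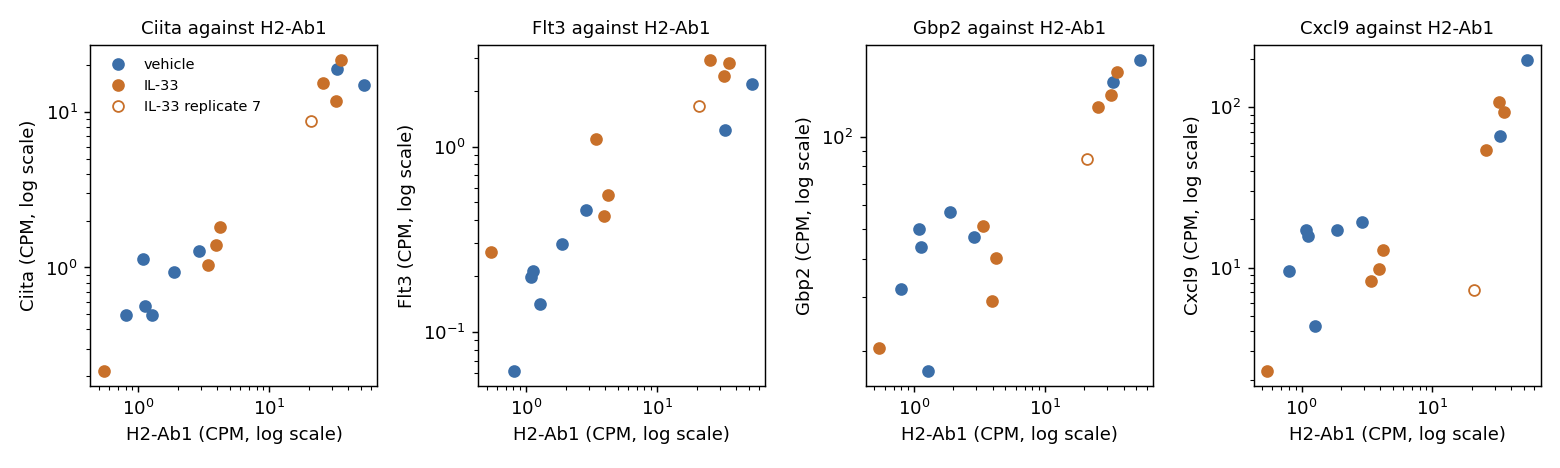
Levels of Ciita, Flt3, Gbp2 and Cxcl9 (vertical axes) against H2-Ab1 (horizontal axes) in CPM on logarithmic axes, 1 circle per tumor, with IL-33 replicate 7 open. Ciita is higher where H2-Ab1 is higher, also among the 10 lower tumors, and Cxcl9 of IL-33 replicate 7 (7.29 CPM) lies among the lower tumors.

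Endosomal processing supplies the peptides and trims the invariant chain. Of Ctss, Ctsl, Ctsb, Ctsd, Ctsh, Lgmn and Cst3, 0 of 7 passed an unadjusted p of 0.05 in edgeR, with a median log2 fold change of -0.14 and the smallest p for Cst3 (-0.49, SE 0.27), Ctsd (-0.41, SE 0.29) and Ctsl (-0.38, SE 0.27). Without vehicle replicate 4, where Cst3 and Ctsd were at 1040 and 2411 CPM, Cst3 was at -0.11 (SE 0.14), Ctsd at 0.00 (SE 0.13) and Ctsl at -0.32 (SE 0.28). Only Ctsh, a cathepsin, had the same 6 tumors highest. Surface turnover was read from March1 and March8, ligases that remove class II molecules from the surface, and Cd83, which opposes March1. Cd83 was between 0.707 and 11.1 CPM in vehicle and between 1.73 and 16.2 CPM in 7 IL-33 tumors, and higher still in IL-33 replicate 7. It was the only gene of the 8 pathway lists (43 genes tested) to pass, with a log2 fold change of 1.24 (SE 0.57), an unadjusted p of 0.0445 and an adjusted p of 0.430, where 9.99% of all genes passed in that direction. Without IL-33 replicate 7, its highest tumor, it was at 1.05 with an unadjusted p of 0.0843 and an adjusted p of 0.964. Its unadjusted p in edgeR was at least 0.05 in 10 of the 16 fits without 1 tumor, and ran from 0.00623 to 0.0862. March1 was at 0.56 (SE 0.37) and March8 at 0.04 (SE 0.20).

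The costimulators that act beside class II molecules split. Cd86 and Cd40 had the same 6 tumors highest, at log2 fold changes of 0.25 (SE 0.38) and 0.32 (SE 0.63), while Cd80 (-0.12, SE 0.30) lay between 30.8 and 53.6 CPM in 15 tumors and at 6.55 CPM in IL-33 replicate 7. None of the 3 passed in edgeR. Genes of the CD4 T cell, which reads class II molecules, shared the order of tumors in part. Cd4, Lag3 and Cd5 had the same 6 tumors highest. Without IL-33 replicate 7, 6 of 6 genes had the remaining 5 tumors highest, where 5.92% of all genes did. With all tumors 0 of 6 genes passed, with a median log2 fold change of 0.47. The smallest p was that of Icos (1.00, SE 0.70), Cd4 (0.59, SE 0.65) and Cd5 (0.57, SE 0.71).

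Markers of cells that carry class II molecules moved with the members, in part. The 9 dendritic cell markers summed to 14.3 to 122 CPM in vehicle and 23.5 to 161 CPM in IL-33 tumors. The 6 tumors (61.9 to 161 CPM) were all above the other 10 (14.3 to 56.0 CPM). This sum leaned on 1 gene, Itgax. It gave 129 of 161 CPM in IL-33 replicate 8, 124 of 160 in replicate 4 and 49.7 of 82.3 in replicate 3. In vehicle replicates 7 and 2 it gave 88.0 of 122 and 77.1 of 101 CPM, but in IL-33 replicate 7 only 9.40 of 61.9 CPM. Of the 9, Flt3, Ccr7, Batf3 and Siglech had the same 6 tumors highest. The others did not: Clec9a had 1 of the 6 among its 6 highest, Zbtb46 had 2 and Cd209a 3. Itgax was 15th of 16 in IL-33 replicate 7, whose sum of 61.9 CPM held 29.3 CPM of Zbtb46. Without this library 6 of the 9 had the remaining 5 tumors highest, where 5.92% of all genes did. Flt3, the receptor by which dendritic cells develop, had a log2 fold change of 1.28 (SE 0.68), an unadjusted p of 0.0778 and an adjusted p of 0.511 in edgeR. Among the 9, Cd209a was at 0 in 2 tumors and Siglech in 1. The 9 macrophage markers, none at 0, summed to 757 to 2248 CPM in vehicle and 576 to 2027 CPM in IL-33 tumors, and 5 of the 6 tumors were above the other 10. Of the 9 only Csf1r had the same 6 tumors highest, and 2 of the 9 had the remaining 5 highest without IL-33 replicate 7. The part of each cell type in the class II levels was not tested.

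B cell markers followed only some of the 6 tumors. Their 7 genes summed to 67.6 CPM in vehicle replicate 2, 50.7 in IL-33 replicate 4, 35.9 in IL-33 replicate 8 and 28.6 in IL-33 replicate 7. They summed to 13.4 CPM in vehicle replicate 7 and 14.5 CPM in IL-33 replicate 3, against 2.04 to 14.4 CPM in the other 10. In vehicle replicate 7, Ms4a1 (the B cell surface protein CD20) was at 0.114 CPM, while H2-Aa, H2-Ab1, H2-Eb1 and Cd74 were at their highest of all tumors. The list was not uniform: in the same tumor Cd22 was at 4.86 CPM, above the 10 lower tumors (at most 1.63 CPM), and Cd79b at 6.97 CPM (at most 6.42 CPM there), and Cd22 had the same 6 tumors highest. H2-Oa and H2-Ob, which are known as genes of B cells and some dendritic cells, were both highest in vehicle replicate 2, where Ms4a1 was at 10.2 CPM. Across the 7, Ms4a1 was at 0 in 1 tumor, Cd79a in 2, Blk in 4 and Fcer2a in 7.

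Krt8, a keratin of epithelial and carcinoma cells, ran the other way. It was at 181 to 318 CPM in the 6 tumors and at 402 to 975 CPM in the other 10, and 52 of all genes (0.309%) had these 6 tumors lowest. Krt8 was 1 of 5 epithelial markers, and the others did not share this order. Of the 6 tumors, Cdh1 had 5 among its 6 highest, Epcam and Krt18 had 3 and Krt19 had 2. The 5 epithelial markers together did not separate the 6 tumors from the other 10, with 236 to 797 CPM against 494 to 1546 CPM. The 797 CPM was in IL-33 replicate 7, where Krt18, Cdh1 and Epcam were at 159, 104 and 98.8 CPM.

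Relations between genes were computed within each side of the gap, since a value pooled over both sides would reflect the gap. Each side holds tumors of both treatment groups, and the permutations did not keep the groups apart. An r may thus in part reflect a difference between the groups. This was not tested, and no r within a treatment group is given. Of 15 relations, of which 13 are reported, 5 passed an adjusted p of 0.05 in the 10 lower tumors. Ciita correlated with H2-Ab1 at a Pearson r of 0.877 (adjusted permutation p 0.0204; Spearman rho 0.842, adjusted p 0.0194), and the r was 0.772 without the 2 tumors farthest from the median of Ciita. The r was 0.835 with H2-Eb1 (adjusted permutation p 0.0231), 0.804 with Cd74 (adjusted permutation p 0.0231) and 0.782 with H2-Aa (adjusted permutation p 0.0283), and 0.750, 0.586 and 0.616 without the 2 farthest tumors. The rho was 0.794, 0.867 and 0.842, with adjusted permutation p of 0.0319, 0.0194 and 0.0194. The DM chains and H2-Oa did not pass with Ciita, at r of 0.438 for H2-DMa, 0.325 for H2-DMb1 and 0.147 for H2-Oa (adjusted permutation p 0.336, 0.441 and 0.795). H2-Ab1 correlated with Flt3 at r 0.758 (adjusted permutation p 0.0264; rho 0.782, adjusted p 0.0319; r 0.793 without the 2 farthest). Flt3 was scarce in these 10 tumors, at 1 to 20 counts (0.0617 to 1.10 CPM). The relations of H2-Ab1 with Adgre1 (macrophages), Cd3e (T cells), Ifng and Gbp2 did not pass, at r of 0.468, 0.622, 0.567 and 0.387 (adjusted permutation p 0.336, 0.141, 0.173 and 0.365). H2-Oa did not pass with Flt3 (r -0.01, adjusted permutation p 0.978). In these 10 tumors Ifng was at 0 to 10 counts, H2-Oa at 0 to 6 and Ciita at 4 to 40. At so few counts of Ifng and H2-Oa, a relation that did not pass says little.

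In the 6 upper tumors 0 of 15 relations passed on Pearson's r. The highest was that of H2-Ab1 with Gbp2, at r 0.907 (unadjusted exact permutation p 0.0167, adjusted p 0.175), with a rho of 1 (adjusted exact permutation p 0.0417) and an r of 0.921 without the 2 farthest tumors. Ciita with H2-Ab1 was at r 0.507 (adjusted exact permutation p 0.510). H2-Ab1 with Flt3, which passed in the lower tumors, was at r 0.105 here (adjusted exact permutation p 0.878), with a rho of -0.03.

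Beyond the listed genes, likeness to the class II pattern was ranked by Pearson's r over all 16 tumors with the mean log2(CPM + 0.5) of H2-Aa, H2-Ab1, H2-Eb1 and Cd74, among 13102 genes with a mean of at least 1 CPM. This is a description across tumors that share the gap, and carries no p. H2-Ea-ps came first (r 0.992) and H2-DMb2 second (r 0.973). They were followed by Neurl3 (0.966), Dennd1c (0.955), BC035044 (0.953), Gpr132 (0.952), Cd300a (0.952), Plbd1 (0.951), Gimap3 (0.950) and Carmil2 (0.950). None of these spanned as wide a range as H2-Ea-ps: Neurl3 was between 4.63 and 41.6 CPM over the tumors and Dennd1c between 2.82 and 12.5 CPM. Flt3 was at rank 20 (r 0.933), Irf1 at 60 (r 0.910), and Krt8 at 13098 (r -0.88). Among the other epithelial markers r ran from -0.33 (Krt19) to 0.42 (Cdh1).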

How the data were processed

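The authors deposited, for 16 tumors, raw counts from poly(A)-selected RNA-seq: numbers of reads per gene and tumor, and the submitters' processing notes name HISAT2, featureCounts and mm10, with versions and strand use not given in the sources used here. Without strand, overlapping genes could share reads. Groups and replicate numbers came from the labels. The methods give fewer mice per group for this model than tumors sequenced, and do not say which tumors share a mouse, so tumors may not be independent and p-values measure only the spread between tumors.

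Symbols, coordinates and exon lengths came from GENCODE M21 (22255 of 22298 genes named). The members and lists were chosen with earlier results of these data known. The genes named are the members, up to 3 genes of each list with the smallest p, index genes of the relations and the 10 genes most alike; others named for their tumor order or levels were chosen after their values were seen. Genes with at least 10 counts over all tumors were tested with edgeR 4.0.16 (R 4.3.3; TMM, glmQLFit, glmQLFTest, Benjamini-Hochberg). Single genes were also tested by two-sided exact permutation of log2(CPM + 0.5). Tumors fell into separate clusters, so relations were computed within each, a choice made after seeing the data, with 100000 resamples for 10 tumors and all 720 orders for 6. Alternatives included DESeq2 1.42.0, limma 3.58.1 voom, other scalings and filters, a replicate block and leaving out each tumor. Fits were tested on simulated counts with the same spread for all genes and no clusters of tumors, which says nothing about power for the class II genes. The floor of 3 counts covers counting error only, whereas the intervals of fold changes hold the spread between tumors. Ifi30 was not analysed here. Some genes of the lists and their relations are not reported here.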

Additional observations from a re-analysis of the deposited data

Results flagged for a closer look

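Values within a group of 8 tumors were flagged where the highest or lowest stood apart by more than Dixon's 95% critical value of 0.526. Of 64 groups (32 genes in each treatment group) 15 were flagged, where chance flags about 5% of groups. One flag was on a member: H2-Oa in vehicle replicate 2 was at 1.53 CPM, above the other 7 vehicle tumors. H2-Eb2 was also high in this tumor, at 0.736 CPM. Among other genes, Cd4 stood high in vehicle replicate 7, at 6.17 CPM.

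Vehicle replicate 4 carried 9 flags. Rfxank (27.3 CPM), Cst3 (1040 CPM) and Ctsd (2411 CPM) were high there, and Rfx5 (4.95 CPM), Nfya (24.8 CPM), Jak2 (20.7 CPM), Ifngr1 (18.5 CPM), Jak1 (51.2 CPM) and March8 (15.2 CPM) were low. No class II member was flagged in this library, and the call of 0 members held without it. IL-33 replicate 7 carried 3 flags: Ifngr1 was high at 92.1 CPM, and Ctsl (690 CPM) and Cd80 (6.55 CPM) were low.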

How the results depend on the processing

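Over 25 alternative fits, 0 members passed an adjusted p of 0.05, and of 199 refits of single members 197 kept the direction. The 2 that turned were H2-DMa (-0.14) and H2-DMb1 (-0.078) without IL-33 replicate 3, and 1 member passed an unadjusted p under limma voom. The counts over all genes depended on the setting far more. An adjusted p of 0.05 was passed by 1 gene, Alas2 (log2 fold change -3.45), under DESeq2 without IL-33 replicate 7, and by 0 in each fit without 1 tumor. At an unadjusted p, 1680 genes were higher and 196 lower with all tumors. Higher genes numbered 424 under DESeq2, 522 under voom, 498 under filterByExpr, 286 under DESeq2 without IL-33 replicate 7, 330 without that tumor and vehicle replicate 4 (added after seeing the data), and 289 (without IL-33 replicate 7) to 1902 in fits without 1 tumor. Lower genes numbered 101 with library totals only, 444 under voom, 392 under DESeq2 without IL-33 replicate 7, 329 without both tumors, and 111 (without vehicle replicate 4) to 362 (without IL-33 replicate 7) in fits without 1 tumor. The causes were not tested. Pathway genes higher at an unadjusted p numbered 2 under DESeq2 (Cd83 and Jak2) and 0 to 6 in fits without 1 tumor (added after seeing the data), with 0 without vehicle replicate 4, 5, 6 or 8 or IL-33 replicate 3, 4 or 8, 2 without IL-33 replicate 1, 4 without vehicle replicate 2 and 6 without vehicle replicate 7, and TMM-scaled CPM gave 1 passing relation in the 6 tumors (H2-Ab1 with Gbp2, r 0.930). Among the lower 10, TMM-scaled CPM moved the adjusted permutation p of rho to 0.084 for Ciita with Cd74 and 0.0667 for H2-Ab1 with Flt3. Neither then passed 0.05, while on Pearson's r both still did (adjusted permutation p 0.0159 and 0.0295). With library totals only, the median of all genes moved from 0.06 to 0.13.

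Leaving out 1 tumor put the median member log2 fold change between 0.08 and 1.16, and limma voom with quality weights put it at 1.38. By gene the range was 0.04 to 1.37 for H2-Aa, 0.09 to 1.33 for H2-Ab1, 0.24 to 1.54 for H2-Eb1, 0.08 to 1.19 for Cd74, 0.21 to 1.40 for Ciita, -0.14 to 0.61 for H2-DMa, -0.078 to 0.61 for H2-DMb1 and 0.15 to 0.96 for H2-Oa. Same-numbered tumors had correlations of deviations from -0.32 to 0.35, and only for replicate 6 was the same number the best match. Whether the numbers pair tumors cannot be decided from this, since a pairing need not show in these deviations. With the replicate block 246 genes were higher and 72 lower, 0 members passed, and the median member value was 1.02. H2-Oa gave no value under filterByExpr, and relations without IL-33 replicate 7 were not run for the upper side, which leaves 5 tumors. Depth bears most on H2-Oa, at 0 to 32 counts. For the other members the spread between tumors set the width of the intervals.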
